A study of Mus musculus with 12 samples.

Results

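Kupffer cells are the macrophages that live in the sinusoids of the liver. The genes described here are 10 markers of that cell, taken by symbol from a deposited table of 48537 genes, and each of the 10 was found once and passed the filter on low values. Kupffer cells hold their place along the blood stream through lectins, scavenger receptors and receptors for complement and dying cells, with which they clear particles, microbes and worn cells. They make the subunits of complement C1q, and they depend on signalling through the receptor for colony stimulating factor 1. Markers such as Clec4f and Timd4 mark the resident cell, whereas Adgre1 (F4/80) and Csf1r are shared with other macrophages.

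Whole mouse livers taken at zeitgeber time 10, meaning 10 h after lights on, were sequenced as 12 RNA libraries, 4 for each of 3 groups. The control group is labelled wildtype, with YFP in its titles. The second group is labelled DKO, for REV-ERBs double-knockout, also with YFP, and the deposited columns matched to it name Cre. The third group is named for REV-ERBalpha-WT and labelled as re-expressing this clock repressor. The labels give no age, sex, strain, vector or promoter for Cre. The libraries held between 5621667 and 6906221 recovered reads. The hepatocyte gene Alb stood between 19309 and 24464 TPM (transcript abundance scaled to library total and gene length) in every liver. Nr1d1, which encodes REV-ERBalpha, had group means of 68.7, 82.5 and 191 TPM in the order control, DKO-labelled, re-expression. A value over the whole gene may include exons that a deletion leaves in place, so it does not check the knockout, and the group is called the DKO-labelled livers. Arntl, a clock gene that REV-ERB represses, had group means of 0.728, 19.8 and 15.1 TPM in the same order. Npas2, another clock gene, had group means of 0.0713, 13.0 and 2.48 TPM. Nr1d2, the other REV-ERB gene, had group means of 96.6, 90.4 and 97.7 TPM, with the same limit on a value over the whole gene.

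Of the 10 promoters, 7 were found in the RefSeq table (build GRCm38.p6, the coordinates of mm10). Those of C1qa, Adgre1 and Csf1r are not shown. The 250 bases before the start site of that table are printed for 3 genes, chosen after their values were seen. The windows of Clec4f and C1qc reach into those genes as GENCODE places them. For Clec4f that gene extends to 83656187, so the marked site of its window lies within it. In 1 liver described below Marco and Cd5l were high and Clec4f was low. Capitals mark GAGGAA, the purine-rich site of the macrophage factor PU.1, or AGGTCA, the half-site of nuclear receptors, each on either strand.
Clec4f, chr6:83656117-83656366, minus strand: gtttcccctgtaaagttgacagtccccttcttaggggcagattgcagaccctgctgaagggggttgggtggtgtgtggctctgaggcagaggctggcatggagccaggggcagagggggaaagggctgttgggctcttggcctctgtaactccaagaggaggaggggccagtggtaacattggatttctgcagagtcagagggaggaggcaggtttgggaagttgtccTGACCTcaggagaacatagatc
Marco, chr1:120505025-120505274, minus strand: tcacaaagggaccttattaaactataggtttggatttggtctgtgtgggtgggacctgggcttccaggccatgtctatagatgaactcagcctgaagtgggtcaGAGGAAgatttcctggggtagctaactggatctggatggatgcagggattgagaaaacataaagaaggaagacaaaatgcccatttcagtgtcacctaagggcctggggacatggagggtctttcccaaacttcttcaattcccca
Cd5l, chr3:87357631-87357880, plus strand: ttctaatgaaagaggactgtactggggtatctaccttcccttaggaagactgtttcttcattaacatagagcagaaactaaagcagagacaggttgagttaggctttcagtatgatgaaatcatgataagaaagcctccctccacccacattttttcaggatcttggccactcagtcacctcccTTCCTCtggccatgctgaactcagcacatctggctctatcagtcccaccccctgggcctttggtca
GAGGAA was present in 5 of the 7 windows (Marco, Cd5l, C1qb, C1qc and Vsig4) and in 23.4% of 32544 windows of the same length. AGGTCA was present in 3 (Clec4f, Timd4 and C1qc) and in 14.0% of all windows. The MAF half-site TGCTGAC was present in Timd4 alone of the 7, against 3.79% of all windows. Both strands were searched, no match shared bases with a match of another motif in these 7 windows, and a match is a description of the window.

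Before any comparison, 2 libraries have to be described, control replicate 1 and re-expression replicate 1, which had the highest summed marker levels. The summed level of the 10 markers was 1128, 621.7, 845 and 506 TPM in control replicates 1 to 4. It was 565, 554, 535 and 592 TPM in the DKO-labelled livers, and 1127, 471, 600.1 and 459 TPM in the re-expression livers. The DKO-labelled livers were thus close together, and each of the other groups held 1 liver at nearly the same high sum. Control replicate 1 was the highest of all 12 libraries for 5 of the 10 markers, where it was the highest for 19.7% of all 17957 tested genes. Re-expression replicate 1 was the highest for 3 and the lowest for 1, against 10.9% and 5.02% of all tested genes. Both libraries were picked by the sum of the same markers, so such counts follow in part from that choice. Control replicate 3 was also high on the shared pattern: the mean standardized level of the 10 markers was 1.62 in control replicate 1, 1.06 in control replicate 3 and 0.94 in re-expression replicate 1, and at most -0.01 in the other 9 livers. Differences of the markers between groups are given below with all 12 libraries, and counts and main values also without control replicate 1 and re-expression replicate 1 (the 2 libraries). In whole tissue, fewer cells of a type and less RNA per cell cannot be told apart.

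**Figure D1:**
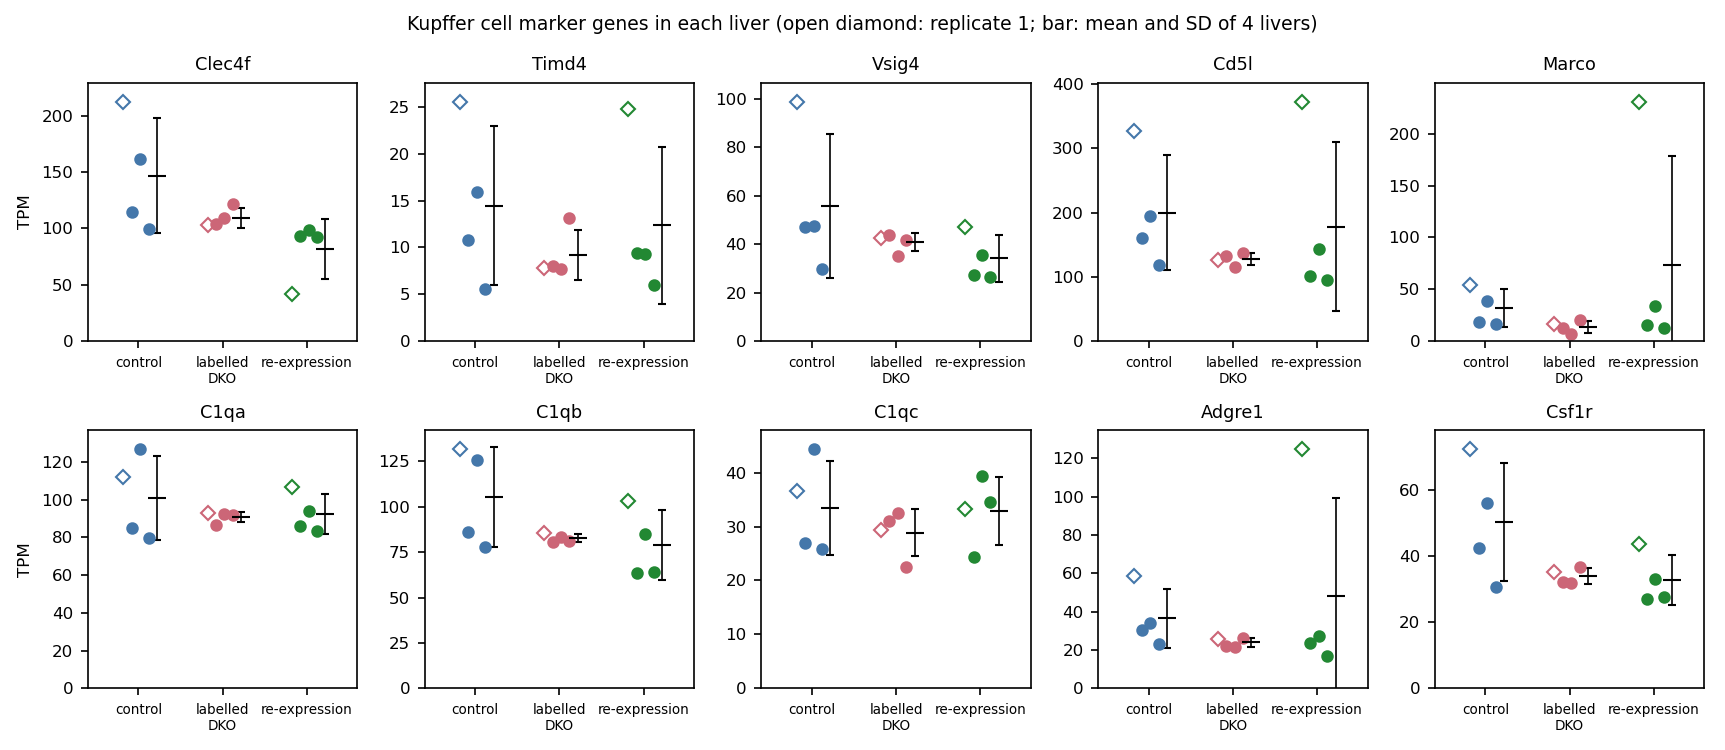
TPM (y axis, linear, from 0) of each of the 10 marker genes in the 12 livers, by group (x axis), with replicate 1 of each group as an open diamond and the mean and SD of 4 livers as a bar beside the points (SD bars stop at 0). Re-expression replicate 1 stands at 231 TPM for Marco and 125 TPM for Adgre1, above the other 11 livers, and at 41.7 TPM for Clec4f, below them.

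The 2 libraries differed in which markers were high. In control replicate 1, the 10 markers stood between 1.13 and 2.38 times the mean of the other 3 control livers, with a median of 1.85. In re-expression replicate 1 the same ratio ran from 0.44 to 11.1, with a median of 1.53. Over all tested genes the median ratio was 1.07 in the first library and 1.046 in the second. In each of the 2 libraries 8 of 10 markers stood above the other 3 livers of the group, with a wider spread of ratios in the second. Of all tested genes 35.1% did so in the first library and 38.2% in the second. The counts of markers follow in part from the choice of the 2 libraries by the sum of these markers.

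Marco, a scavenger receptor that takes up bacteria and particles, showed this most. It stood at 231 TPM in re-expression replicate 1, and at 15.7, 34.1 and 12.4 TPM in replicates 2 to 4. The level in the first liver was 11.1 times the mean of the others, and rested on 929 reads. Adgre1, which encodes the macrophage surface protein F4/80, stood at 125 TPM there and at 23.5, 27.1 and 17.1 TPM in the other 3 re-expression livers. Cd5l, whose secreted product binds lipids and keeps macrophages alive, stood at 372 TPM there against 101, 144 and 94.7 TPM. Timd4, a receptor for the phosphatidylserine of dying cells, stood at 24.8 TPM there against 9.36, 9.33 and 6.03 TPM.

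Clec4f, the C-type lectin that in mice is found on Kupffer cells, went the other way in that same liver. It stood at 41.7 TPM in re-expression replicate 1, the lowest of the 12 livers, and at 92.9, 98.7 and 92.4 TPM in replicates 2 to 4. The ratio of Marco to Clec4f was 5.53 in that liver and lay between 0.0601 and 0.345 in the other 11. The ratio of Cd5l to Clec4f was 8.92, against 1.02 to 1.54 in the other 11 livers. For Adgre1 over Csf1r it was 2.87, against 0.604 to 0.870. Each of these 3 ratios lay outside the range of all other livers. The first 2 had to do so, as Marco and Cd5l were the highest of the 12 livers there and Clec4f the lowest. They add nothing beyond those levels.

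The ratios among the complement genes stayed inside the range of the other livers there. C1qa, C1qb and C1qc encode the A, B and C chains of C1q, which are assembled in equal numbers, and lie next to each other on chromosome 4 (C1qa at 136895917 to 136898803, C1qc at 136889804 to 136893065, C1qb at 136880129 to 136886187, all on the minus strand, build mm10). The ratio of C1qa to C1qb was 1.03 in re-expression replicate 1, inside the range of 0.850 to 1.358 of the other 11 livers. The ratio of C1qc to C1qb was 0.321, inside 0.277 to 0.538. Csf1r, the receptor that keeps macrophages alive, stood at 1.49 times the mean of the other re-expression livers, and Vsig4, a receptor for complement-coated particles, at 1.58 times.

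**Figure D2:**
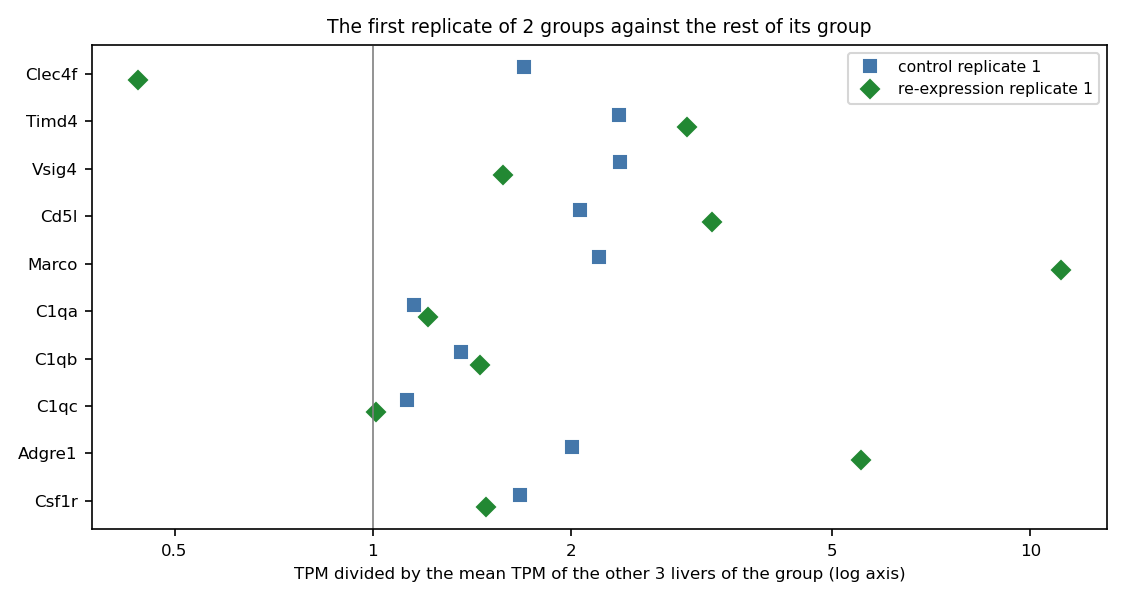
TPM of each marker gene in control replicate 1 (squares) and re-expression replicate 1 (diamonds), divided by the mean TPM of the other 3 livers of its group (x axis, log scale; the line marks 1). In control replicate 1 the 10 genes lie between 1.13 and 2.38, whereas in re-expression replicate 1 they run from 0.44 (Clec4f) to 11.1 (Marco).

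Other genes of macrophages were read from lists of cell type genes. Of 16 tested pan-macrophage and myeloid genes, re-expression replicate 1 stood above the other 3 re-expression livers in 13, against 38.2% of all tested genes. Of 15 other Kupffer cell genes it stood above them in 9 and below them in 3, where the share below over all tested genes was 22.3%. Lyz2, the lysozyme gene of macrophages, was at 273 TPM there and at 79.0, 85.6 and 73.6 TPM in replicates 2 to 4. Aif1 and Cd163 were picked after their values were seen. Aif1, a gene of activated macrophages, was at 26.4 TPM against 6.47, 6.76 and 4.17 TPM. Cd163, the scavenger receptor for haemoglobin, was at 7.33 TPM against 13.1, 15.9 and 13.4 TPM. Cd163 thus was, like Clec4f, at its lowest of the 12 livers there.

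Many genes of incoming monocytes and of other blood cells were low in TPM, though S100a9 reached 36.1 TPM in control replicate 1. Of the 14 monocyte and recruited macrophage genes 6 passed the filter on low values. Re-expression replicate 1 stood above the rest of its group in 6 of 6, against 38.2% of all tested genes. The 14 genes summed to 153 TPM there, the highest of that group, and to 104 TPM in its lowest liver. This sum was carried by Spp1, Cd9 and Plac8, which other liver cells also express. Of monocyte genes chosen after their values were seen, Ccr2 was at 2.09 TPM in that liver and Ly6c2 at 0.675 TPM, 2.07 and 2.14 times the mean of the other 3. Of 4 tested neutrophil genes 3 stood above the rest of the group there, against the same 38.2%. Csf3r at 6.91 TPM was the highest of the 12 livers, and S100a9 and S100a8 were 2.20 and 1.61 times the mean of the other 3. In control replicate 1, the neutrophil genes summed to 64.6 TPM, against 14.2 TPM in the lowest control liver. The part of these cells in the marker levels was not tested.

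The first comparison, DKO-labelled livers against control livers, addresses how the Kupffer cell markers stand in livers that carry the REV-ERB knockout label. None of the 10 markers was called, although all 10 had a lower mean there. Marco had the largest difference, Cd5l, Adgre1 and Csf1r came next, and C1qa had the smallest. Of the 10 markers 0 passed an adjusted p of 0.05 in limma's test of 17957 genes, where 5.33% of all tested genes passed in either direction, 2.34% in the lower and 2.99% in the higher direction. At an unadjusted p under 0.05 there were also 0 of 10, against 18.4% of all genes, and limma's voom on recovered reads called 0. The groups overlapped for each of the 10. The median difference on the log2(TPM + 1) scale was -0.41, where the median over all tested genes was 0.00 and 49.8% of genes were below 0.

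The surface receptors overlapped as follows. Clec4f stood at 212, 114, 161 and 99.1 TPM in control replicates 1 to 4 and at 103, 104, 109 and 122 TPM in the DKO-labelled livers. Its difference was -0.36 (95% interval -0.98 to 0.25, adjusted p = 0.553 in limma), and -0.16 without the 2 libraries. The control livers spread more than 2-fold around the narrow range of the second group, so the mean was lower but the ranges overlapped. Marco stood at 54.3, 18.4, 38.9 and 16.4 TPM in control livers and at 16.3, 12.6, 6.56 and 20.0 TPM in DKO-labelled livers. Its difference of -1.08 had an interval from -2.77 to 0.61, the widest of the 10, and adjusted p = 0.513. It was -0.78 without the 2 libraries, with an SE of 0.45 in place of 0.77. The interval rests on a spread shared by all 3 groups, which takes in re-expression replicate 1 at 231 TPM. That liver is in neither group of this comparison, and the width is the same in all 3 comparisons. Timd4 had means of 14.5 ± 8.51 and 9.17 ± 2.67 TPM and Vsig4 of 55.7 ± 29.7 and 40.8 ± 3.77 TPM (SD, n = 4). Vsig4 gave -0.31 with all libraries and 0.00 without control replicate 1, so its lower mean rests on that liver.

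Among the secreted factors, Cd5l stood at 326, 160.1, 194 and 118 TPM in control livers and at 127, 133, 115 and 137 TPM in DKO-labelled livers. Its difference was -0.54 (interval -1.41 to 0.33, adjusted p = 0.527), and -0.27 without the 2 libraries. In control livers the C1q chains had the lowest coefficients of variation of the 10 markers, between 22.2% and 26.0%. C1qa had means of 100.7 ± 22.4 and 90.8 ± 2.89 TPM, C1qb of 105 ± 27.4 and 82.7 ± 2.15 TPM, and C1qc of 33.4 ± 8.69 and 28.8 ± 4.38 TPM (SD, n = 4). For C1qa the interval of the difference, -0.42 to 0.18, was the narrowest of the 10, with the same shared spread.

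Csf1r, of the macrophage receptors, had the lowest adjusted p of the 10 in this comparison. Csf1r (chromosome 18, 61100598 to 61132149, plus strand) stood at 72.2, 42.5, 56.0 and 30.7 TPM in control livers and at 35.0, 32.2, 31.7 and 36.8 TPM in DKO-labelled livers. It overlaps Hmgxb3 on the opposite strand, and the sources used here do not name the strand setting of the counting. Of 4 control livers 3 lay above all DKO-labelled livers, and the fourth lay below them. The difference was -0.49 ± 0.23 (SE, interval -0.98 to 0.01, adjusted p = 0.278, and 0.0653 to 0.554 over 20 alternatives), and -0.30 without the 2 libraries. Adgre1 had means of 36.6 ± 15.4 and 24.0 ± 2.33 TPM (SD, n = 4). Its difference was -0.51 (interval -1.60 to 0.58, adjusted p = 0.658 in limma), and -0.26 without the 2 libraries. Re-expression replicate 1, at 125 TPM, enters the shared spread, and the SE was 0.50 with all libraries and 0.17 without the 2.

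Without control replicate 1 and re-expression replicate 1, 9 of 10 markers were lower in DKO-labelled livers, with a median of -0.18 in place of -0.41. Of the 10, 0 were called. Control replicate 3, also high on the shared pattern, stayed in this fit. The summed marker level was 621.7 and 506 TPM in control replicates 2 and 4, and 535 to 592 TPM in DKO-labelled livers. The spread within a group was itself unequal. The coefficient of variation of Cd5l was 45.0%, 7.53% and 73.7% in control, DKO-labelled and re-expression livers, and that of Clec4f was 34.7%, 7.92% and 32.7%. Without replicate 1 that of Clec4f was 25.9% in control and 3.69% in re-expression livers. The difference in spread was not tested.

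**Figure D3:**
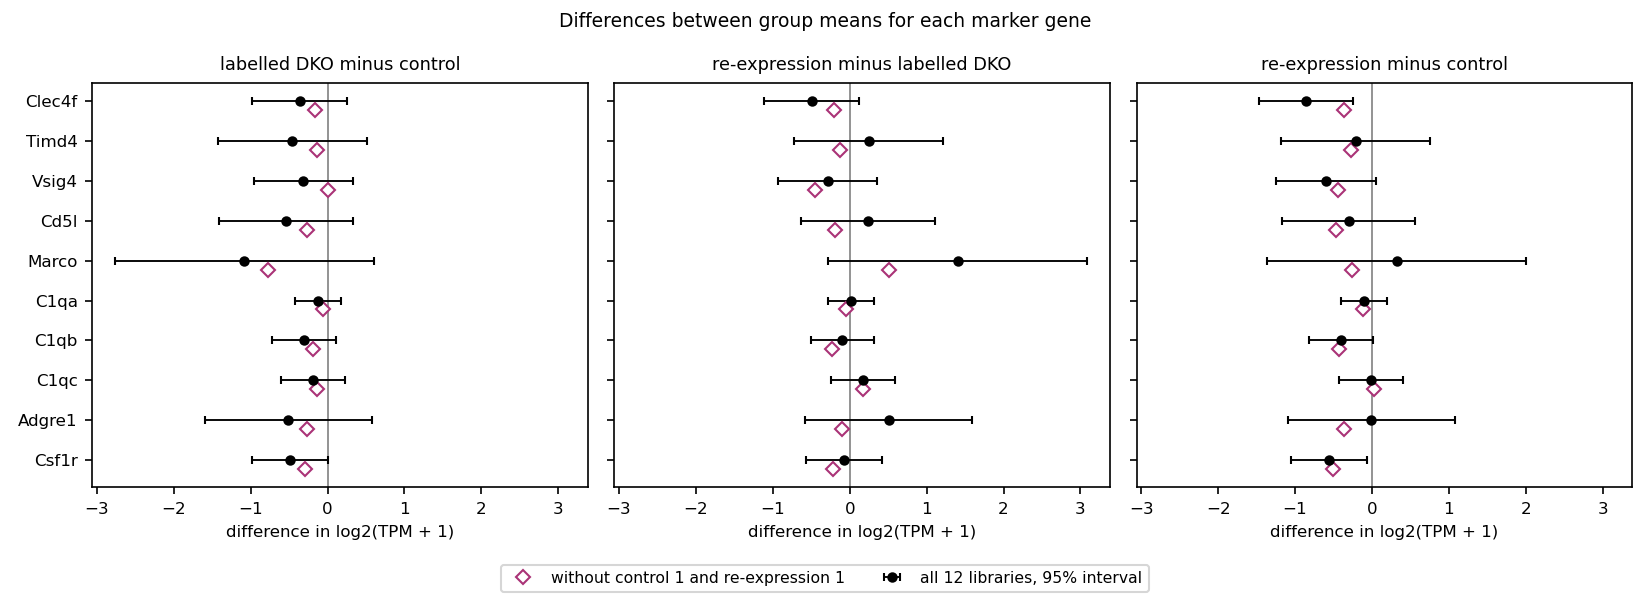
Difference between group means in log2(TPM + 1) (x axis) for each marker gene and comparison, with the 95% interval from limma over all 12 libraries (black) and the value without control replicate 1 and re-expression replicate 1 (open diamonds). In the first panel all 10 black points lie below 0, from -1.08 to -0.12, and none of the 10 was called in any panel.

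The second comparison, re-expression livers against DKO-labelled livers, addresses what the return of REV-ERBalpha does to these markers. It shares the DKO-labelled livers with the first comparison, and no marker was called. Of the 10 markers 6 had a higher mean of log2 values and 4 a lower one, with a median of 0.10 against 0.01 over all tested genes. Called were 0 of 10 in limma, where 0.0724% of all tested genes were called, with 0 at an unadjusted p under 0.05 (6.19% of all genes) and 0 with voom. Of the 10 signs 4 turned without re-expression replicate 1 (Timd4, Cd5l, C1qa and Adgre1), and the other 6 did not. Without re-expression replicate 1 and control replicate 1, 8 of 10 were lower, and the median was -0.16.

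Marco had means of 73.2 ± 105 TPM in re-expression livers and 13.9 ± 5.74 TPM in DKO-labelled livers (SD, n = 4). Its difference of 1.40 (interval -0.28 to 3.09, adjusted p = 0.921) became 0.52 without the 2 libraries. Adgre1 went from 0.50 to -0.10, Cd5l from 0.24 to -0.20 and Timd4 from 0.25 to -0.13 in the same way. For Clec4f the 4 re-expression livers (41.7 to 98.7 TPM) all lay below the 4 DKO-labelled livers (103 to 122 TPM). It was the 1 marker of 10 whose groups did not overlap, against 2.16% of all tested genes in that direction, and its difference of -0.49 was not called (adjusted p = 0.942). Without the 2 libraries it was -0.20 (adjusted p = 0.837), a change of more than 2-fold in the value.

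The third comparison set re-expression livers against control livers, which are also the controls of the first. No marker was called here either. Of the 10 markers 9 had a lower mean of log2 values, with a median of -0.26 against 0.01 over all tested genes. Called were 0 of 10 in limma, where 1.82% of all tested genes were called (1.16% higher and 0.663% lower), and 0 with voom. At an unadjusted p under 0.05 there were 2 of 10, Clec4f and Csf1r, both lower, against 12.5% of all genes in either direction and 5.69% in the lower one. Without the 2 libraries, and with control replicate 3 kept in, 9 of 10 were lower, with a median of -0.37.

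For Clec4f all 4 re-expression livers lay below the lowest control liver at 99.1 TPM, the 1 such marker of 10, against 3% of all tested genes in that direction. The difference was -0.85 ± 0.28 (SE, interval -1.47 to -0.24, adjusted p = 0.192, and 0.0806 to 0.407 over 20 alternatives). Without the 2 libraries it was -0.37 ± 0.15. Csf1r stood at 43.5, 27.0, 32.9 and 27.7 TPM in re-expression livers, where 2 of 4 lay below all control livers and 2 within their range. Its difference was -0.56 ± 0.23 (SE, adjusted p = 0.318), and -0.51 ± 0.18 without the 2 libraries. For Clec4f the order of group means was control, labelled DKO, re-expression (147, 109 and 81.4 TPM), and no step in that order was called.

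The neighbourhood of these cells was read from the other fixed lists. Of 15 other Kupffer cell genes, 1 was called lower in DKO-labelled than in control livers (2.34% of all tested genes) and 0 higher. This was Hpgd, an enzyme that breaks down prostaglandins, at 188, 209, 173 and 183 TPM in control livers and 144, 148, 144 and 129 TPM in DKO-labelled livers. The groups did not overlap (against 5.4% of all tested genes in that direction). The difference was -0.41 ± 0.08 (SE, adjusted p = 0.0123 in limma), and the call was kept in all 20 alternatives (-0.41 without the 2 libraries). In control replicate 1, Hpgd stood at 0.999 times the mean of the other control livers, where the median of this list was 1.58. Which cells carried the difference in Hpgd was not tested. The list's median difference was -0.31, with 13 of 15 below 0. Control replicate 1 was the highest of the 12 livers for 10 of these 15, against 19.7% of all tested genes. The iron exporter gene Slc40a1, through which Kupffer cells return iron from red cells, was at 138, 110, 65.0 and 75.5 TPM in control livers and at 51.6 to 59.2 TPM in DKO-labelled livers, and was not called (adjusted p = 0.0618). Nr1h3, which encodes the liver X receptor alpha of Kupffer cells and hepatocytes, had means of 98.8 and 99.3 TPM and was not called.

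Of 16 pan-macrophage and myeloid genes 0 were called in limma in each comparison. Their median difference between DKO-labelled livers and control livers was -0.29, with 15 of 16 below 0. Control replicate 1 was the highest of the 12 livers for 10 of the 16, against 19.7% of all tested genes. Their sum was 765, 449, 520 and 330 TPM in control replicates 1 to 4, and 371 to 431 TPM in DKO-labelled livers. The largest of their levels were those of Lyz2, Ctss and Mpeg1. Mpeg1, a pore-forming protein of phagocytes, had means of 70.3 TPM in control livers and 44.0 TPM in DKO-labelled livers (adjusted p = 0.249). It stood at 105, 61.6, 74.5 and 40.1 TPM in control replicates 1 to 4, and at 38.7 to 49.0 TPM in DKO-labelled livers. In the list of inflammatory genes 6 of 12 were tested and 0 were called. Il1b stood at 14.1, 2.55, 15.0 and 2.68 TPM in control livers and at 1.13 to 2.24 TPM in DKO-labelled livers (adjusted p = 0.132). The groups did not overlap (against 5.4% of all tested genes in that direction), and control replicates 1 and 3 stood far above replicates 2 and 4.

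The ligands and niche signals of Kupffer cells held 16 tested genes, with 1 called lower in DKO-labelled livers (2.34% of all tested genes). This was Csf1, which encodes a ligand of the Csf1r product, at 12.1, 11.9, 11.4 and 8.10 TPM in control livers and 6.68, 7.62, 6.17 and 8.03 TPM in DKO-labelled livers. The groups did not overlap (against 5.4% of all tested genes in that direction), by a margin between the fourth liver of each. The difference was -0.54 ± 0.13 (SE, adjusted p = 0.0361), and the call was lost in 13 of 20 alternatives (adjusted p up to 0.117, with a difference of -0.49, without the 2 libraries). Leaving out control replicate 1, 2 or 3, any DKO library, or of the re-expression group replicate 2 or 4 each ended it. In re-expression livers Csf1 stood at 7.93, 8.32, 9.10 and 8.05 TPM and differed from neither group by a called amount. Il34, the other ligand of that receptor, added to complete the pair, lay between 2.37 and 4.60 TPM in the 12 livers and was not called. Notch1, a receptor of the endothelial signals that shape Kupffer cells, was called higher in re-expression than in control livers, with means of 21.7 and 11.4 TPM (0.88 ± 0.14, SE, adjusted p = 0.00921, and 0.0625 without the 2 libraries).

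Of 9 tested partners of C1q, 2 were called lower in DKO-labelled livers and 0 higher, against 2.34% and 2.99% of all tested genes. C2, a protease that acts after C1, had means of 41.1 TPM in control livers and 27.9 TPM in DKO-labelled livers (-0.55 ± 0.11, SE, adjusted p = 0.0165). That call was lost without DKO replicate 2 and without the 2 libraries (0.0602). Serping1, the inhibitor of C1, had means of 1088 and 817 TPM (-0.40 ± 0.10, SE, adjusted p = 0.0455), a call lost in 12 of 20 alternatives (adjusted p up to 0.141, with a difference of -0.33, without the 2 libraries). It ended on leaving out control replicate 1, 2 or 3, any DKO library, or of the re-expression group replicate 1 or 2. C2 was also called lower in re-expression than in control livers (adjusted p = 0.045), a call lost in 14 of 20 alternatives (up to 0.216). That one ended on leaving out control replicate 1, 2, 3 or 4, any of DKO replicates 2 to 4, or any re-expression library but replicate 3. The C1 protease genes C1ra and C1s1, named here as the direct partners of C1q, were not called in any comparison.

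**Figure D4:**
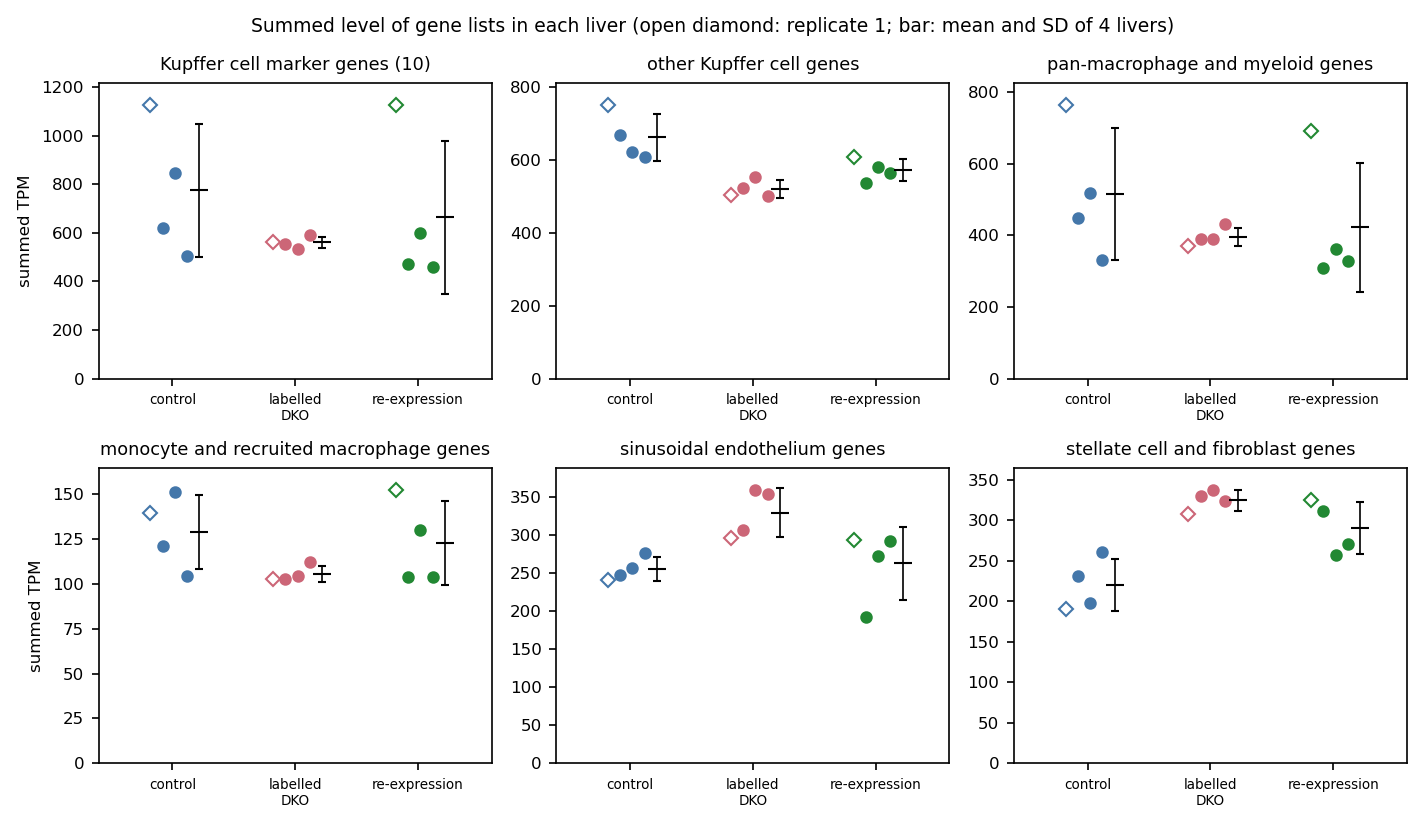
Summed TPM (y axis, linear, from 0) of 6 gene lists in each of the 12 livers, by group (x axis), with replicate 1 as an open diamond and the mean and SD of 4 livers as a bar. The marker genes and the pan-macrophage list share the 2 high livers, whereas the stellate cell list lies between 307 and 338 TPM in all DKO-labelled livers and between 190 and 260.2 TPM in control livers.

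Genes of other cells of the sinusoid had higher means in DKO-labelled than in control livers, where the markers had lower ones. The summed level of 10 sinusoidal endothelium genes lay between 241 and 277 TPM in control livers, 296 and 360 TPM in DKO-labelled livers, and 192 and 294 TPM in re-expression livers. All 10 had a higher mean in DKO-labelled livers than in control livers, with a median of 0.35 and 0 called. Among the 10 genes of stellate cells and fibroblasts, 4 passed the test as higher there (2.99% of all tested genes) and 0 as lower. The median of these 10 was 0.50. Reln, a marker of stellate cells, had means of 26.4 and 45.5 TPM (0.77 ± 0.13, SE, adjusted p = 0.0046), a call kept in all 20 alternatives (0.71 without the 2 libraries). Of the other calls in that list, Lrat was lost in 1 of 20 alternatives, without the 2 libraries (0.0531). Colec11 was lost in 7 (up to 0.0703), among them on leaving out control replicate 1 or 3 or DKO replicate 1, 2 or 3. Dcn was lost in 12 (up to 0.133), among them on leaving out re-expression replicate 2 or any control or DKO library. Reln was also called higher in re-expression than in control livers (0.59, adjusted p = 0.0389), a call lost in 15 of 20 alternatives (up to 0.195), among them on leaving out any library but control replicate 4. Of 8 hepatocyte genes 3 were called higher in DKO-labelled than in control livers (Ttr, Cps1 and Ass1) and 0 lower. Over all tested genes 2.99% were called higher in that comparison and 2.34% lower. The hepatocyte genes did not move as a set: 5 had a higher mean of log2 values and 3 a lower one. Alb was among the lower ones, at 20148 against 23338 TPM, and was not called (adjusted p = 0.146 in limma). Ttr was lost in 11 of 20 alternatives, Ass1 in 10 and Cps1 in 5, among them, for all 3, without the 2 libraries (adjusted p = 0.0751, 0.052 and 0.0527) and on leaving out DKO replicate 2 or 4. Ttr and Ass1 were also lost on leaving out control replicate 1 or 2 or DKO replicate 1 or 3, and Ttr on leaving out control replicate 3. Of 4 tested lymphocyte and dendritic cell genes 0 were called. In control replicate 1, 6 of the 10 stellate cell genes were below the other control livers and 0 above, and of the 10 sinusoidal genes 3 were below and 2 above, against 20.5% below and 35.1% above over all tested genes. In re-expression replicate 1, which also had high markers, 5 stellate cell genes were above the rest of the group and 2 below, and 6 sinusoidal genes were above and 0 below, against 38.2% above and 22.3% below. How far the amount of these other cells bears on the TPM of the markers was not tested.

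The pattern shared by the 10 markers was taken as the mean of their standardized log2 values in each of the 12 libraries. Single markers correlated with this mean, in which they are contained, from 0.28 (Clec4f) and 0.57 (C1qc) to 0.96 (C1qb). Outside the markers, the 8 tested genes most like it had correlations from 0.93 to 0.95. Among them were Cd300ld, Cd300a, Mpeg1, Nckap1l, Ifi204, Fam129a and the immunoglobulin gene Igkv4-57. Nckap1l encodes a regulator of actin in blood cells. Cd300ld, at the top with 0.95, ran from 5.80 to 17.7 TPM, and Igkv4-57 ran from 0 to 19.1 TPM. All 12 points share the 2 libraries that stand apart.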

How the data were processed

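The series held RNA-seq of 12 mouse livers, and the authors deposited 1 table of TPM values for 48537 genes, whose columns each sum to 1000000. The submitters' processing notes name build mm10 and, in no stated order, STAR 2.7.1a, featureCounts 2.0.1, DESeq2 1.36.0, bcl2fastq 2.17 and SAMtools 1.9. Columns were matched to samples by name and replicate number, and those naming YFP and Cre were taken as the DKO samples. The unnamed comparisons in the table were not used here.

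TPM times (length less 199 bases) gave whole multiples of 1 step for 100% of values, within 0.01 reads, and thus the reads. Group means of log2(TPM + 1) were fitted with limma 3.58.1 in R 4.3.3 to all 12 libraries, for the 17957 genes whose mean reached 1 TPM, with a trend in the prior variance, 9 residual degrees of freedom, two-sided tests and Benjamini-Hochberg adjustment over all tested genes at 0.05. A fold on this scale understates changes of low genes. P-values set a difference of means against the spread between livers, with an estimate of that spread shared by the groups. The fit was tested on simulated data.

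The markers and the 12 other lists were chosen with earlier results of these data known. Genes to name were all markers, the called genes of each other list or else its 3 highest by mean TPM, 4 REV-ERB and clock genes, and the 8 genes most like the markers; others are marked where they appear. Of the 8, 1 is not reported here. Gene coordinates were read from the mouse annotation of GENCODE, release 21. Alternatives were another pseudocount, 2 filters, size factors, 8 libraries, the replicate block, voom on the reads and each library left out. Leaving out control replicate 1 with re-expression replicate 1 was chosen after seeing the data.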

Additional observations from a re-analysis of the deposited data

Results flagged for a closer look

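Within a group of 4 livers, 1 liver stood far from the other 3 in 5 of 30 tests of a marker gene and in 3 of 39 tests of a list's summed level, where about 5% of groups are flagged with no effect. Re-expression replicate 1 accounted for 3 of the 5 marker flags: Clec4f at 41.7 TPM with the nearest other liver of its group at 92.4, Marco at 231 TPM with the nearest at 34.1, and Adgre1 at 125 TPM with the nearest at 27.1. The other 2 were Timd4 at 13.2 TPM in DKO replicate 4, with the nearest at 7.97, and C1qa at 86.5 TPM in DKO replicate 2, with the nearest at 91.7. Among the lists, the pan-macrophage and myeloid genes summed to 691 TPM in re-expression replicate 1, with the nearest at 362. The neutrophil genes summed to 8.80 TPM in DKO replicate 1, with the nearest at 17.7, and the lymphocyte and dendritic cell genes to 22.3 TPM in control replicate 1, with the nearest at 13.5.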

How the results depend on the processing

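Over 20 alternatives, 0 of 30 marker results (10 genes in 3 comparisons) passed an adjusted p of 0.05 in limma, and the lowest adjusted p was 0.0653 (Csf1r, DKO-labelled against control livers, without control replicate 4). Of 600 alternative values 575 kept their direction and 25 did not, in 11 results, and the cause was not tested. With 1 library left out in turn, those results ran as follows. For DKO-labelled against control livers, Vsig4 ran from -0.56 to 0.0018. For re-expression against DKO-labelled livers, Timd4 ran from -0.13 to 0.50, Cd5l from -0.20 to 0.46, C1qa from -0.050 to 0.068, Adgre1 from -0.10 to 0.83 and Csf1r from -0.21 to 0.011. For re-expression against control livers, Timd4 ran from -0.59 to 0.11, Marco from -0.56 to 0.81, C1qa from -0.21 to 0.015, C1qc from -0.12 to 0.13 and Adgre1 from -0.62 to 0.32. Without control replicate 1 and re-expression replicate 1 together, chosen after seeing the data, Vsig4 stood at 0.0018 in the first comparison, Timd4, Cd5l, C1qa and Adgre1 at -0.13, -0.20, -0.050 and -0.10 in the second, and Marco and C1qc at -0.26 and 0.033 in the third.

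Over all genes, 958 were called for DKO-labelled against control livers, 559 with the 8 libraries of that comparison, 608 without the 2 libraries, and 573 to 922 with 1 library left out. For re-expression against DKO-labelled livers 13 were called, 20 with 8 libraries, 35 with voom and 5 to 15 with 1 left out. For re-expression against control livers 327 were called, 162 with 8 libraries, 551 with voom, 167 without the 2 libraries and 175 to 332 with 1 left out.

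The labels do not say that replicate numbers pair the livers. Same-numbered deviations correlated between 0.038 and 0.14 for re-expression with control livers and between -0.069 and -0.021 in the comparisons with DKO-labelled livers, so not every pair was over 0.1. As a hint from the data, the best match of each of the 4 control livers was the same-numbered re-expression liver, whereas this held for 2 of 4 re-expression and 0 of 4 DKO-labelled livers. With the replicate block, 8 genes were called for re-expression against DKO-labelled livers, 209 for re-expression against control livers, and 0 markers in any comparison. Depth limits the low markers most: marker values rest on 24 (Timd4) to 1593 (Cd5l) reads per library.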
